A study of Mus musculus with 5 samples.

Results

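Hepatocyte nuclear factors and RFX regulators of the endocrine pancreas were followed by 9 array probes for 7 genes, namely Hnf4a, Hnf4g, Foxa1, Foxa3, Onecut1, Rfx3 and Rfx6, out of 39429 probes on the array. The members were chosen by name, and every non-control probe that the array design assigns to one of these symbols was taken. Rfx3 had 3 probes and the other 6 genes had 1 each. RNA came from MIN6 cells, a mouse insulinoma line that secretes insulin and serves as a beta cell model, and 1-colour (Cy3) Agilent arrays were used with 1 array per sample. Cells labelled as controls had been incubated with exosomes, small vesicles that cells release, purified from ex vivo muscle of standard diet mice (EXO-STD, n = 2). For the treated cells the exosomes came from ex vivo muscle of high fat diet mice (EXO-HP, n = 3). Both groups are the same line and both received vesicles. The design has no group without vesicles, and the sources used here do not give the dose, the incubation time or the number of donor mice. The samples are titled biological replicates with nothing on separate cultures or vesicle preparations, and the spread behind every p-value is that of these 5 samples, which may in part be technical.

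The hepatocyte nuclear factors are transcription factors named for their discovery at liver gene promoters, but most of them also act in the pancreas. HNF4 proteins are nuclear receptors that bind DNA as homodimers. FOXA proteins are forkhead factors that open chromatin in cells derived from the gut tube, and ONECUT1, also known as HNF6, acts early in the pancreatic lineage upstream of the endocrine program. RFX proteins bind the X-box element. RFX3 is known as a regulator of cilium genes and of endocrine cell differentiation, and RFX6 acts downstream of Neurog3 in islet development and helps to maintain adult beta cells.

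Hnf4a is transcribed from separate promoters, of which the upstream one, P2, is known as the form used in beta cells and the downstream one, P1, as the form used in liver. Its only probe lies at the 3' end of the array's reference transcript, at chromosome 2, 163398548 to 163398607 (mm9, plus strand), so the values below cannot tell the transcripts of these promoters apart. The 250 bases before each RefSeq start (GRCm38.p6) are shown for that reason, with those of Rfx6 and Foxa1 for comparison. Capitals mark matches, on either strand, to 6 short motifs searched for the factors of this group: GTTAAT (HNF1), TGTTTAC and TGTTTGC (forkhead), ATCAAT (ONECUT), GTTGCC (RFX) and AAAGTCCA (HNF4). None of the matches shown overlap.
Hnf4a, upstream start, chr2:163506607-163506856, plus strand: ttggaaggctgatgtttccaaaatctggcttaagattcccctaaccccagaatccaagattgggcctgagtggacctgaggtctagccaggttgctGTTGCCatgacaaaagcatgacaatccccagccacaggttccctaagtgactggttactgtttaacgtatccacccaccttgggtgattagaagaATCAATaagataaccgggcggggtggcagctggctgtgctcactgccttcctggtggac
Hnf4a, downstream start, chr2:163546905-163547154, plus strand: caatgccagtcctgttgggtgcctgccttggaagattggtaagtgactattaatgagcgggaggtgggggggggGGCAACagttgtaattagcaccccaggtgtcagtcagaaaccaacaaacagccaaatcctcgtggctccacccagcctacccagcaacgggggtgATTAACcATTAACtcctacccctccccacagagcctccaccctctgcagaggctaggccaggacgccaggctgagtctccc
Rfx6, chr10:51685268-51685517, plus strand: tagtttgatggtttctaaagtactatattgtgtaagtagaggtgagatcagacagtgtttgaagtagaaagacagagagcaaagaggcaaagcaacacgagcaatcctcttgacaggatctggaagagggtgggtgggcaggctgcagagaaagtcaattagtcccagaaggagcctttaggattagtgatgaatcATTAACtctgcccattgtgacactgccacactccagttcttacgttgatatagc
Foxa1, chr12:57546112-57546361, minus strand: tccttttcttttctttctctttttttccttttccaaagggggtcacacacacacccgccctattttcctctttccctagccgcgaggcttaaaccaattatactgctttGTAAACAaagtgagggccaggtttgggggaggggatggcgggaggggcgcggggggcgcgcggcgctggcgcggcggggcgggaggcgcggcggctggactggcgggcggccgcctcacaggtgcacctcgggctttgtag

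The upstream Hnf4a sequence held the RFX letters 154 bases before the start and the ONECUT letters 59 bases before it. The downstream sequence held the RFX letters 176 bases before the start and the HNF1 letters at 81 and 74 bases before it. Rfx6 had an HNF1 match 54 bases before its start, and Foxa1 a TGTTTAC match 141 bases before its own. Promoter sequences were matched for 6 of the 7 members, all but Hnf4g. Those of Foxa3, Onecut1 and Rfx3 had 0 matches to these letters. Of 32851 mouse promoter sequences of the same length, 6.43% held GTTAAT, 3.17% TGTTTAC, 4.30% TGTTTGC, 6.72% ATCAAT, 10.4% GTTGCC and 1.01% AAAGTCCA. These matches describe the letters in the window and say nothing of binding. Only exact letters were searched, so a sequence without a mark may still hold a site of slightly different letters.

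The arrays differed in how much of their content was detected. Between 71.8% and 74.0% of spots were well above background on slide 1, which held both EXO-STD arrays and EXO-HP replicate 1, and between 81.6% and 91.6% on slide 2, which held EXO-HP replicates 2 and 3. All 10 beta cell markers looked for, among them both insulin genes, Pdx1 and Nkx6-1, were well above background on all 5 arrays. Of 10 hepatocyte markers 8 were so as well. The summed skeletal muscle markers (15 genes) ranged from 0.27 to 0.64 in EXO-STD and from 0.56 to 1.76 in EXO-HP on the normalised log2 scale. The summed fibroblast markers (8 genes, of which Pdgfra and Postn were not well above background on any array) ranged from -2.49 to -2.40 and from -2.48 to -1.45. Whether any of this bears on the members was not tested.

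The 6 genes other than Onecut1 were expressed in MIN6 cells at a level that all 5 arrays measured. Their 8 probes were well above background on every array, as were 68.6% of all usable probes. None of the 8 could be called different between EXO-HP and EXO-STD. With limma, 0 of 8 passed adjusted p 0.05 over all 31964 tested probes, where 0.0% passed, and 0 of 8 had an unadjusted p under 0.05, against 5.63% of all tested probes. Their log2 fold changes (EXO-HP minus EXO-STD) ran from -0.20 to 0.27, with 4 above and 4 below 0. Of all tested probes 62.9% were above 0, and 36.0% with median scaling, so the split over all probes depends on the scaling. The HNF4 and FOXA probes were on the lower side and the RFX probes on the higher side, although Hnf4g, Foxa3 and Rfx6 changed sign under some settings given with each below. In this fit, which had no term for slide, the widest 95% intervals reached 0.55-fold and 1.76-fold. Changes within these intervals cannot be told from 0. Intervals were wider under some settings and narrower under others. With slide as a fixed block the widest reached 0.40-fold (Foxa3) and 2.23-fold (Rfx3, probe 1), and with quantile normalisation Hnf4g reached 0.40-fold. Changes larger than 0.55-fold or 1.76-fold are therefore outside the intervals of all 8 probes in this fit but not under every setting.

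**Figure D1:**
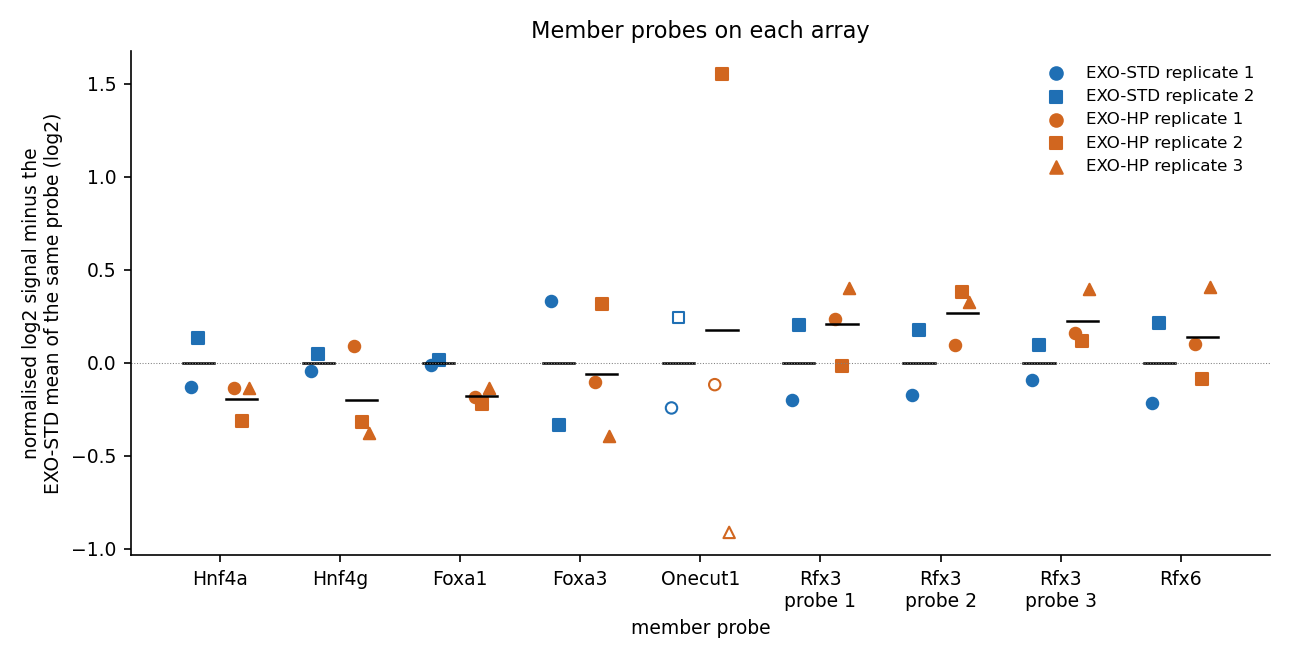
Normalised log2 signal of each of the 9 member probes on each of the 5 arrays, minus the EXO-STD mean of the same probe (y axis, log2); filled symbols are well above background, open symbols are not, and black bars are group means. Apart from Onecut1, the points stay within 0.5 of the EXO-STD mean, and the EXO-HP points of Foxa1 lie below both EXO-STD points.

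Levels below are normalised log2 signals, where 0 is the 75th percentile of all probes on that array. They compare arrays for 1 probe and not genes with each other. Hnf4a, the nuclear receptor at the centre of this network, read 2.11 and 2.37 in EXO-STD and 2.10, 1.93 and 2.10 in EXO-HP, in replicate order here and below. All 3 EXO-HP arrays were below both EXO-STD arrays, though EXO-HP replicates 1 and 3 lay next to EXO-STD replicate 1. The means were 2.24 ± 0.19 (SD, n = 2) and 2.05 ± 0.10 (SD, n = 3), a log2 fold change of -0.20 ± 0.20 (SE) with a 95% interval from -0.70 to 0.31 (limma, adjusted p = 1.00). Leaving out EXO-STD replicate 1 gave -0.33, and leaving out EXO-STD replicate 2 gave -0.07.

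Hnf4g encodes the HNF4 paralogue known from gut, kidney and pancreas, and its probe lies at chromosome 3, 3657265 to 3657324 (mm9, plus strand). It read -4.19 and -4.09 in EXO-STD and -4.05, -4.46 and -4.52 in EXO-HP. The EXO-HP array of slide 1 was the highest of all 5 and both EXO-HP arrays of slide 2 were the lowest, so the groups overlapped and the split followed the slides. The log2 fold change was -0.20 ± 0.23 (SE), with an interval from -0.77 to 0.37. With slide as a fixed block it was 0.088, which equals the comparison within slide 1, and with quantile normalisation it was -0.53. Slide 2 holds no EXO-STD array, so no comparison could be made within it.

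Foxa1, a forkhead factor known in beta cells as a regulator of Pdx1 and of the potassium channel subunits behind insulin secretion, had the smallest spread of the members. Its probe lies at chromosome 12, 58641764 to 58641823 (mm9, minus strand). It read 0.71 and 0.74 in EXO-STD and 0.54, 0.50 and 0.59 in EXO-HP, so that every EXO-HP array was below both EXO-STD arrays. The means were 0.72 ± 0.02 (SD, n = 2) and 0.54 ± 0.04 (SD, n = 3). The log2 fold change was -0.18 ± 0.18 (SE), with an interval from -0.64 to 0.27 and adjusted p = 1.00 (limma). That SE is wider than these SDs alone would give, because limma moderates each probe's variance towards the variance of all tested probes. Over the 18 alternative settings, some of which cannot change its value, Foxa1 lay between -0.36 and -0.11 and did not change sign.

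Foxa3, the FOXA member best known from liver, gut and testis, varied within both groups by more than between them. Its probe lies at chromosome 7, 19599053 to 19599112 (mm9, minus strand). It read -1.63 and -2.30 in EXO-STD and -2.07, -1.65 and -2.36 in EXO-HP. EXO-STD replicate 1 and EXO-HP replicate 2 were the high arrays and EXO-STD replicate 2 and EXO-HP replicate 3 the low ones. The log2 fold change of -0.06 ± 0.32 (SE), with an interval from -0.86 to 0.74, moved to 0.27 without EXO-STD replicate 1 and to -0.39 without EXO-STD replicate 2. Without EXO-HP replicate 3 it was 0.11.

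Onecut1 was at the detection limit. Its single probe, at chromosome 9, 74710921 to 74710980 (mm9, plus strand), was well above background on EXO-HP replicate 2 alone, the array with the largest share of detected spots. The processed signal there was 21.0, beside a lowest signal of 18.1 among all spots well above background on that array. On the other 4 arrays the scanner software put a surrogate value in place of the signal, 5.11 and 8.56 in EXO-STD, 4.90 for EXO-HP replicate 1 and 3.48 for replicate 3. The probe did not pass the filter and was not tested, and no fold is given, since the mean of EXO-HP stayed under the detection level of the EXO-STD arrays. For Onecut1 these arrays give an upper bound and no comparison.

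Rfx3 was read at 3 places along its transcript, on chromosome 19 of mm9, minus strand. Probe 1 lies at 27900579 to 27900638 and starts at base 938 of the reference transcript, probe 2 at 27842877 to 27842936 (base 2461), and probe 3 at 27838940 to 27838999 (base 6398). The first 30 bases of each 60-base probe are given because separate sequences read this gene, and those of the Onecut1 probe because they alone stand for that gene.
Rfx3, probe 1: aactccaaataccattactatgggattcgt
Rfx3, probe 2: aagcagagttttccagcttactctaacccc
Rfx3, probe 3: agaaactaaaatcaggacttttctgatctc
Onecut1: cttcggtgaccggcgcgcaggtcagcaatg

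In the fit without a term for slide, the 3 Rfx3 probes gave fold changes of the same sign and like size. Probe 1 read -3.43 and -3.03 in EXO-STD and -3.00, -3.25 and -2.83 in EXO-HP, with a log2 fold change of 0.21 ± 0.24 (SE). Probe 2 read -3.76 and -3.41 against -3.48, -3.20 and -3.25, a log2 fold change of 0.27 ± 0.22. Probe 3 read -3.27 and -3.09 against -3.02, -3.06 and -2.79, a log2 fold change of 0.22 ± 0.20. EXO-STD replicate 1 was the lowest array for every one of the 3, and for probe 3 alone were all EXO-HP arrays above both EXO-STD arrays. Probes of 1 gene share the RNA sample and are not replicates of the treatment. Their intervals ran from -0.39 to 0.80, from -0.28 to 0.82 and from -0.28 to 0.73, and the limma adjusted p was 1.00 for each. Without EXO-STD replicate 1 the values were 0.01, 0.09 and 0.13 for probes 1, 2 and 3, and with quantile normalisation 0.03, 0.08 and 0.05. With slide as a fixed block they were 0.24, 0.10 and 0.16, less alike in size. For probe 2 both arrays of slide 2 (-3.20 and -3.25) were the highest.

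Rfx6, the islet RFX factor, has its probe at chromosome 10, 51450116 to 51450175 (mm9, plus strand). It read 2.13 and 2.56 in EXO-STD and 2.44, 2.26 and 2.75 in EXO-HP. EXO-STD replicate 2 lay above 2 of the 3 EXO-HP arrays. The means were 2.34 ± 0.30 (SD, n = 2) and 2.48 ± 0.25 (SD, n = 3), and the log2 fold change of 0.14 ± 0.25 (SE) had an interval from -0.49 to 0.77. It turned to -0.036 with median scaling and to -0.075 without EXO-STD replicate 1.

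**Figure D2:**
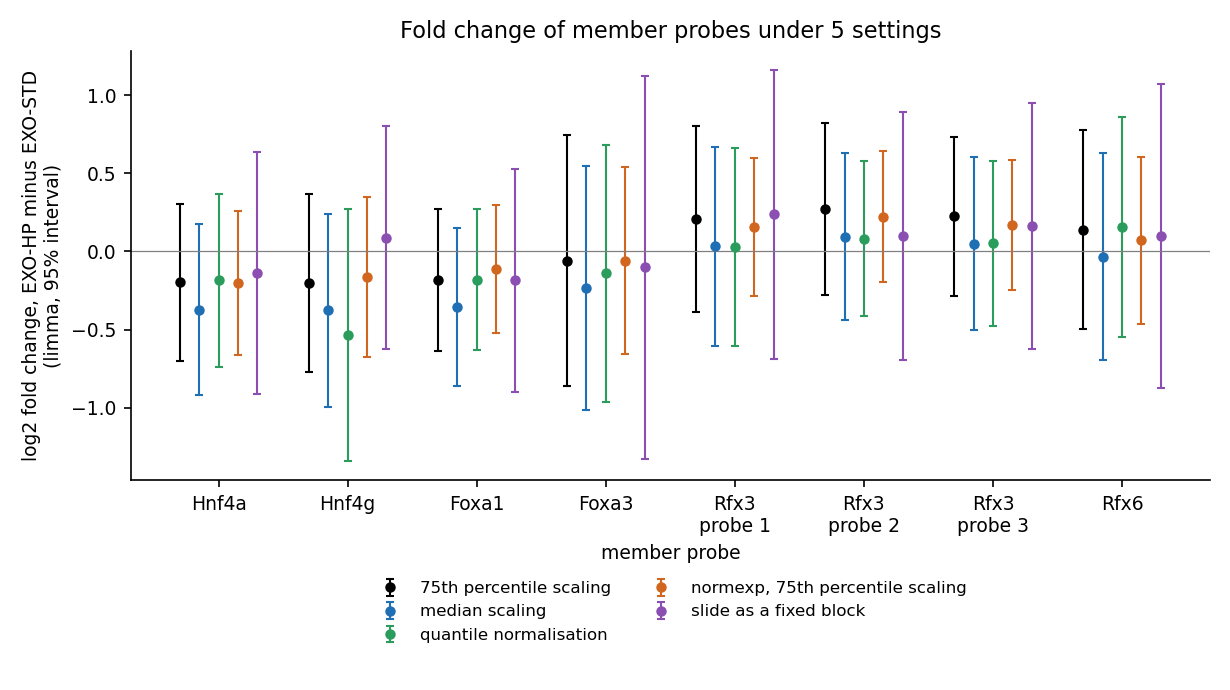
Log2 fold change (EXO-HP minus EXO-STD, y axis) with limma's 95% interval for the 8 tested member probes (x axis) under 5 settings, by colour. Every interval crosses 0; the HNF4 and FOXA points lie below 0 apart from Hnf4g with slide as a block, and the Rfx3 points lie above it.

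Among single probes, the groups did not overlap for 3 of the 8, Hnf4a and Foxa1 on the lower side and Rfx3 probe 3 on the higher side, beside 17.9% of all tested probes. Scaling sets where 0 lies. The median of all tested probes was 0.08 with scaling to the 75th percentile and -0.10 with median scaling. Relative to the median of all probes, over 6 ways of scaling and background correction, Hnf4a lay between -0.27 and -0.17, Hnf4g between -0.52 and -0.21, Foxa1 between -0.26 and -0.10 and Foxa3 between -0.14 and -0.11. On the same measure Rfx6 lay between 0.02 and 0.18 and the Rfx3 probes between 0.05 and 0.19.

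The difference of a pair of probes within an array does not depend on scaling by a constant. Relative to Rfx3, both Hnf4a and Foxa1 were lower on every EXO-HP array than on either EXO-STD array, whichever Rfx3 probe was used. The Rfx3 probes share the RNA samples, so their pairs are not separate evidence. Most of these pairs overlapped in the deposited value table. With the EXO-STD mean of the difference set to 0, Hnf4a minus Rfx3 probe 3 read -0.04 and 0.04 in EXO-STD and -0.30, -0.43 and -0.53 in EXO-HP, a mean difference of -0.42. With probes 1 and 2 the mean differences were -0.40 and -0.47. Foxa1 minus Rfx3 probe 3 read 0.08 and -0.08 against -0.35, -0.34 and -0.53, a mean difference of -0.41, and with probes 1 and 2 it was -0.39 and -0.45. The margin was narrow for Foxa1 against Rfx3 probe 1, where EXO-STD replicate 2 read -0.19 and EXO-HP replicate 2 read -0.21. Hnf4a minus Rfx6 had a mean difference of -0.34. For Foxa1 minus Rfx6 the mean difference was -0.32, but the groups overlapped. For Hnf4g minus Rfx3 probe 3 the groups were nearly in contact, with 0.05 and -0.05 in EXO-STD and -0.07, -0.43 and -0.77 in EXO-HP, and they overlapped with normexp and in the deposited value table.

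These pairs were picked out after the values were seen. The groups did not overlap in 8 of the 28 pairs of tested member probes, and the pairs share probes. Among differences between Hnf4a and every other tested probe 30.4% did not overlap either, so the count of pairs is no result about these genes. That share was not computed for Foxa1, so its pairs have no background to be set against. With 2 and 3 arrays, the smallest 2-sided p that an exact permutation test can give is 0.2. In the deposited value table the groups overlapped for 5 of these 6 pairs of Hnf4a or Foxa1 with Rfx3, all but Foxa1 with probe 3. The sign of all 6 was the same under the 18 alternatives, with values from -0.61 to -0.14. Several of these could not change it. Median scaling, the changes of filter and the intensity trend leave a difference within an array as it was. Slide 1 alone repeats slide as a fixed block, and the replicate block repeats leaving out EXO-HP replicate 3.

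**Figure D3:**
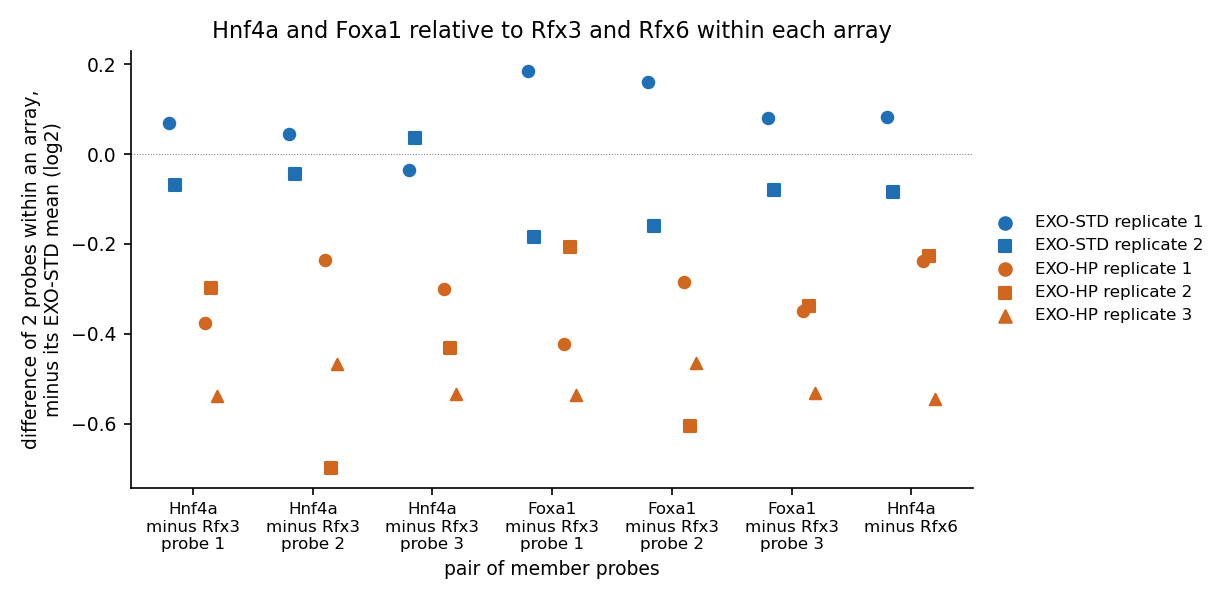
Difference between a pair of member probes within each of the 5 arrays (y axis, log2), minus the EXO-STD mean of that difference, for 7 of the 8 pairs whose groups do not overlap; the pair not drawn is Hnf4g minus Rfx3 probe 3, whose EXO-HP values run from -0.77 to -0.07. In the 7 pairs drawn the EXO-HP points lie between -0.70 and -0.21, below the EXO-STD points of the same pair. The pairs were chosen for lack of overlap, so the gap between groups is no result. Foxa1 minus Rfx6, whose groups overlap, is not drawn.

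The 3 Rfx3 probes had the largest absolute fold changes with 75th percentile scaling, though not with median scaling, where Hnf4g (-0.38), Hnf4a (-0.37) and Foxa1 (-0.36) exceeded them. For these 3 probes, genes of most like pattern were sought among genes well above background on all 5 arrays whose SD over arrays was at least 0.8 times that of the probe, by the root mean square difference of mean-centred log2 values over 5 arrays. Probe 1 was closest to Arid1b (0.024), Trim46 (0.024) and Mybl2 (0.025), probe 2 to Rhox3f (0.034), Amdhd1 (0.035) and Nol12 (0.037), and probe 3 to Zranb3 (0.018), Wdr92 (0.019) and Glg1 (0.024). By that limit on the SD there were 9604, 10119 and 11894 candidates for probes 1, 2 and 3, and no gene appeared in more than 1 of the sets.

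Other genes of these families and pathways were taken as lists, with the brightest probe standing for a gene. No list member passed adjusted p 0.05 with limma. Over all 25918 genes tested, 62.5% were higher in EXO-HP and the median log2 fold change was 0.07. Of these genes 5.89% had an unadjusted p under 0.05 (limma), the share to set beside the list counts below. As for all probes, the number of list genes on the higher side depended on the scaling, and the number with median scaling is given beside each. Slide 2 held EXO-HP arrays alone and detected more spots, so dim genes can pass the filter through EXO-HP. Among genes well above background on all 5 arrays, 16 of 26 liver-type targets were higher (median 0.05) and 19 of 47 cilium genes (median -0.03). For beta cell genes it was 17 of 24 (median 0.12) and for the families 7 of 9 (median 0.06). Of 10 tested genes of the FOXA, ONECUT and RFX families or of the RFX complex, all outside the members, 8 were higher and 2 lower (median 0.07, with 3 higher under median scaling). Of these, 0 had an unadjusted p under 0.05 (limma). Rfxap, a subunit of the RFX complex at MHC class II promoters, had -0.32 ± 0.20 (SE), and Rfx2, a close relative of Rfx3, had 0.43 ± 0.32, which was 0.17 without EXO-STD replicate 2, 0.20 without EXO-HP replicate 3 and 0.11 with quantile normalisation. Onecut3, counted among the 8, passed the filter through its EXO-HP arrays alone, with neither EXO-STD array well above background. The fitted log2 fold change was 0.48, but 0.15 without EXO-STD replicate 1, 0.05 with normexp and -0.26 with quantile normalisation, so no direction is given for it. Of 19 nuclear receptor partners and coregulators known to act with HNF4, 12 were higher and 7 lower (median 0.03; 4 higher with median scaling), and 0 had an unadjusted p under 0.05. Nr2f2, the receptor COUP-TFII that binds the same elements as HNF4, had 0.42 ± 0.24. Nr0b2, the corepressor SHP, had 0.80 ± 0.51, which was 0.06 with slide as a block and 0.36 without EXO-HP replicate 2, and the Mediator subunit Med14 had 0.39 ± 0.31, with a second probe at -0.23.

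Cilium genes are the best known targets of RFX factors. Of 49 tested, 21 were higher and 28 lower (median -0.03, with 6 higher under median scaling). Of the 49, 1 had an unadjusted p under 0.05 (limma), beside 5.89% of all genes tested, so the count is no result about cilium genes. The 1 cilium gene was Ift140, which encodes a subunit of the retrograde intraflagellar transport complex. It read -4.49 and -4.38 in EXO-STD and -4.09, -3.36 and -3.33 in EXO-HP, which gave 0.84 ± 0.30 (SE, limma adjusted p = 0.886). Both slide 2 arrays were the highest, and with slide as a block the value was 0.35. The transition zone gene Tctn1 had 0.56 ± 0.24, which was 0.25 with slide as a block.

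Of 25 beta cell genes known to depend on RFX3, RFX6, HNF4A or FOXA factors, 18 were higher and 7 lower (median 0.13; 8 higher with median scaling), and 0 had an unadjusted p under 0.05. The smallest p values belonged to the prohormone convertase gene Pcsk1 (0.66 ± 0.32), Ins2 (0.32 ± 0.18) and the insulin gene activator Mafa (0.38 ± 0.21). Pcsk1 read 4.82 and 3.86 in EXO-STD and 5.03, 4.87 and 5.10 in EXO-HP, and without EXO-STD replicate 2 its value was 0.18. The outlying point of this list is Gipr, the receptor for the incretin GIP, named here after its value was seen. It read -8.58 on EXO-STD replicate 1, where it was not well above background, and 1.56 on EXO-STD replicate 2, within the EXO-HP range of 0.58 to 1.68. Gipr is counted among the 18 but passed the filter through its EXO-HP arrays alone, so no direction is given for it.

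Of 32 tested liver-type targets of HNF4 and FOXA factors, 20 were higher and 12 lower (median 0.09, with 13 higher under median scaling). Of the 32, 1 had an unadjusted p under 0.05 (limma), beside 5.89% of all genes tested, so the count is no result about these targets. Apoa4, an apolipoprotein gene of gut and liver, read -5.80 and -5.35 in EXO-STD and -3.17, -4.32 and -4.79 in EXO-HP, so that the groups did not overlap. Its log2 fold change was 1.48 ± 0.51 (SE, limma adjusted p = 0.881), which was 0.69 with normexp and 2.41 with slide as a block. Apoa1, which encodes the main protein of high density lipoprotein, had 0.52 ± 0.23 and was -0.024 with quantile normalisation. Ttr, the thyroxine carrier transthyretin that islets also make, had 0.61 ± 0.36, with the groups overlapping, and was 0.31 without EXO-STD replicate 1.

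**Figure D4:**
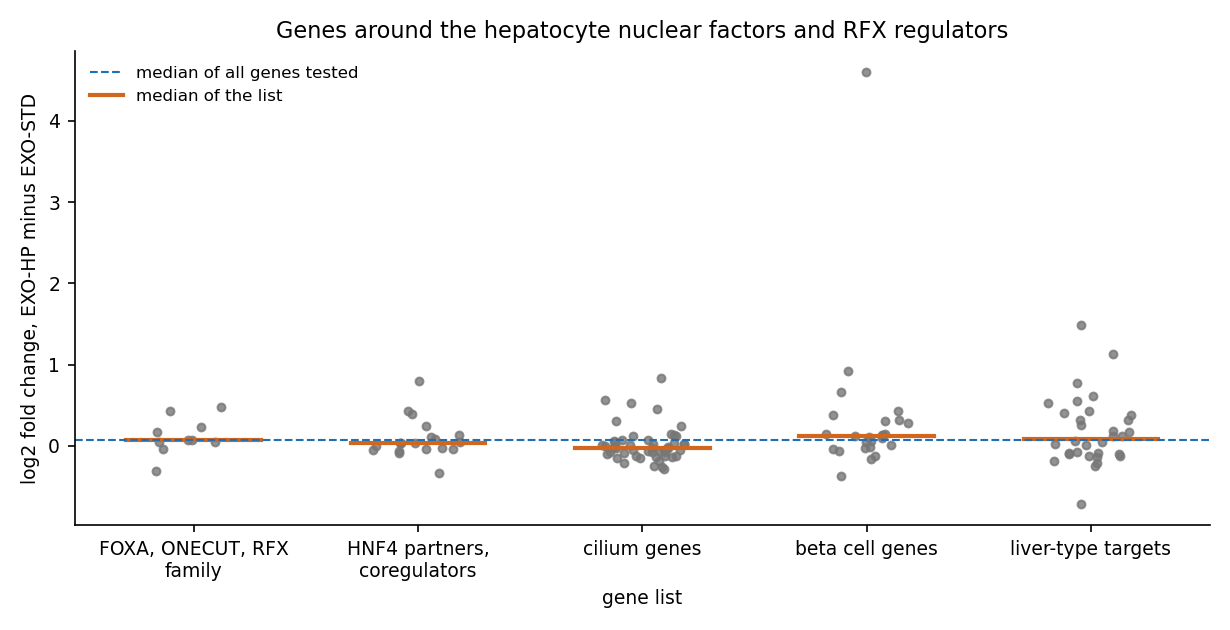
Log2 fold change (EXO-HP minus EXO-STD, y axis) of each tested gene in 5 lists (x axis; 1 grey point per gene), with list medians in orange and the median of all 25918 tested genes as a dashed line at 0.07. The list medians lie between -0.03 and 0.13 with 75th percentile scaling. The single point above 4 is Gipr, which was not well above background on EXO-STD replicate 1.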

How the data were processed

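Spot intensity values were extracted with Feature Extraction 10.7.3.1 on an array design of build mm9, per the file headers, while version 9.1 and limma are named in the submitters' processing notes. The processed intensity was corrected by spatial and multiplicative detrending within each array, per the file headers. The deposited value table holds log2 values with equal quantiles on all 5 arrays and served as an alternative. Here the processed signal, without outlier spots, was put on a log2 scale, averaged over the spots of a probe and set relative to the 75th percentile of its array. For 110 probes some array had no usable spot, and 7355 were detected well above background on fewer than 2 arrays in both groups, which left 31964 to test. No spot was saturated. The test was limma 3.58.1 under R 4.3.3 (lmFit, eBayes, no covariates, Benjamini-Hochberg over all tested probes), with 3 residual and 2.59 prior degrees of freedom, and the fit was tested on simulated data. The number of arrays limits the precision.

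Gene symbols of the lists were updated through RefSeq genes of GRCm38.p6, used for names, which named 66.1% of probes, and promoters come from RefSeq on the same build. Positions of probes are those of the array design. Exon annotation was not used here. Named list genes are the 3 with the smallest p in each list, apart from a result that is not reported here, and patterns like a member's are named for the 3 member probes of largest absolute change with 75th percentile scaling. The members and lists were chosen with earlier results of these data known.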

Additional observations from a re-analysis of the deposited data

How the results depend on the processing

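Over 18 alternatives the 8 member probes gave 144 fold changes, of which 137 kept their sign and 7 changed it, and none passed adjusted p 0.05 (smallest 0.797). The changes of filter and the intensity trend leave the fold changes as they were, so they could not change a sign. Slide 1 alone repeats the values of slide as a fixed block, and the replicate block those of leaving out EXO-HP replicate 3. Hnf4g turned to 0.088 with slide as a fixed block and on slide 1 alone. Foxa3 turned to 0.11 with the replicate block, and leaving out 1 array gave -0.39 to 0.27. Rfx6 turned to -0.036 with median scaling, and leaving out 1 array gave -0.075 to 0.35. Apoa1 turned to -0.024 with quantile normalisation, -0.0089 with normexp and quantile normalisation and -0.015 in the deposited value table, and Onecut3 to -0.26, -0.041 and -0.10 with the same 3. Med14 ranged from -0.033 to 0.81 when 1 array was left out. Of the list medians, that of the HNF4 partners changed sign in 7 of 18 alternatives, those of the families and of the liver-type targets in 4, that of cilium genes in 2 and that of beta cell genes in 1.

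The number of probes past adjusted p 0.05, 0 in all other settings, was 94 on slide 1 alone, where EXO-HP is a single array, and 0 to 3 when 1 array was left out (3 without EXO-STD replicate 1), none of them a member. Without adjustment 1798 probes had p under 0.05, against 867 with quantile normalisation, 487 with normexp and quantile normalisation, 1102 with normexp and 75th percentile scaling, 631 in the deposited value table, 1091 among probes well above background on all 5 arrays, 843 with slide as a fixed block, 981 on slide 1 alone and 958 to 3412 when 1 array was left out (3412 without EXO-HP replicate 1, 1146 without EXO-HP replicate 2, 958 without EXO-HP replicate 3). The cause of these shifts was not tested. Same-numbered samples of the groups correlated at 0.03 and -0.05 in their deviations from the group means, so no pairing by number was seen. With 2 EXO-STD arrays the deviations of 1 mirror those of the other, so this check cannot exclude pairing. With the replicate block the adjusted threshold was passed by 0 probes and the unadjusted one by 1664. Where 1 EXO-STD array was left out, the lone array was assumed to vary like the EXO-HP arrays, and on slide 1 alone, with a single EXO-HP array, that array was assumed to vary like the 2 EXO-STD arrays. Signal near background limits Onecut1, Onecut3 and, on EXO-STD replicate 1, Gipr.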
